A study of Mus musculus with 10 samples.

Results

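The sites described are those that were selected on their number of tags, where a tag is a mapped read, with more than 50 tags in the GFP ChIP of Glis3-EGFP thyroid glands. There were 543 such sites among 18513 in the deposited list, or 2.93%. The remaining 17970 sites held 9 to 50 tags. The tag count is thus a description of the selected sites and not a result about them.

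Chromatin came from thyroid glands of C57BL/6 mice that carried the GLIS3-EGFP-fusion, in which GLIS3 is tagged with the fluorescent protein EGFP at its own locus, and had been fed for 2 weeks with a low-iodine diet (LID). The control was chromatin of wild type (WT) C57BL/6 mice on the same LID for the same time, which carry no EGFP. Both were precipitated with agarose that carried a GFP-binding peptide, and each group had 1 library. The sources used here do not give the number of glands in a library. An LID raises thyroid stimulating hormone (TSH), so neither library shows binding in an unstimulated gland, and the whole gland also holds cells other than follicular cells. A list of sites has no markers of cell type, so the labelled tissue could not be checked. With 1 library per group there is no spread between animals, and no test of a difference between sites was made. Intervals are 95% intervals, exact Poisson for tags and exact binomial for shares. They cover counting error only, and those for shares treat sites as independent, which neighbouring sites are not.

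GLIS3 is a Krüppel-like zinc finger transcription factor (TF) of thyroid follicular cells, the cells that make thyroid hormone, and it takes part there in the response to TSH. ChIP-Seq recovers the DNA to which such a TF is cross-linked, and each place where its tags pile up is called as a site. In a bulk gland, a site bound in more cells and a site bound more often in each cell cannot be told apart from its tags.

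The selected sites ran from 51 to 178 tags with a median of 63 and quartiles of 56 and 78. They held 38395 tags, which were 12.1% of the tags at all sites and 0.850% of the 4516562 tags selected by the caller. The count fell off without a step at the threshold. There were 28 sites with exactly 50 tags and 23 with exactly 51, and the median fold over the control was 57.25 for the former and 58.39 for the latter. For 51 tags the interval was 37.97 to 67.1. The interval began above 50 tags at 256 of the 543 sites, those with at least 65 tags, while 618 of the other sites, with 37 tags or more, had an interval that ended above 50. Sites near the threshold could thus not be ordered within counting error. There were 156 sites above 75 tags and 46 above 100.

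**Figure D1:**
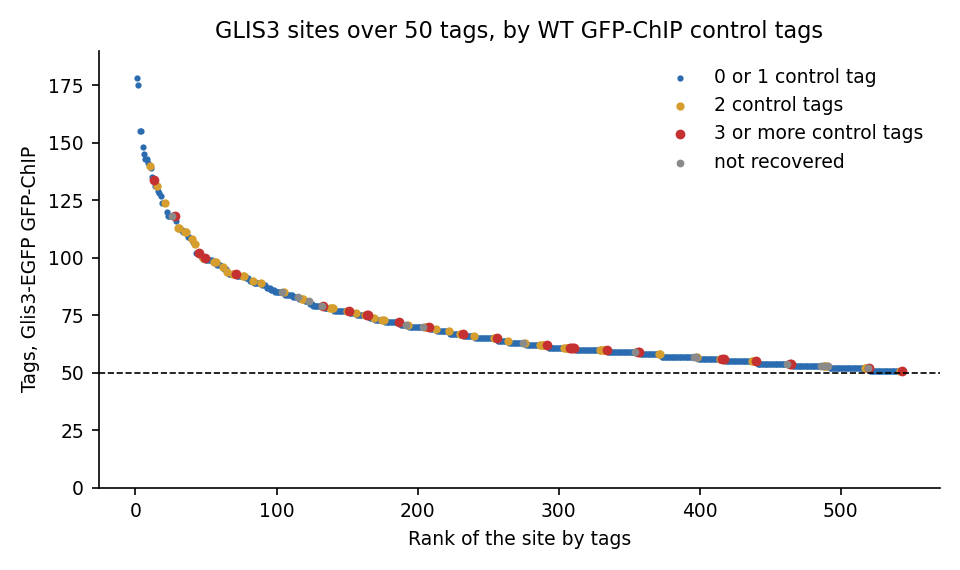
Tags in the Glis3-EGFP GFP ChIP (y axis, number of tags) of the 543 sites over 50 tags, ordered by tags (x axis, rank). Each point is a site, coloured by its tags in the WT GFP ChIP control, and the dashed line is the threshold of 50 tags. Sites with 0 or 1 control tag (423 sites) occur from the highest ranks to the lowest, and the curve flattens from 178 tags towards 51.

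Little signal was seen in the WT GFP ChIP at the sites over 50 tags. The list was called against this same library and its lowest fold was 2. A control count that is low beside the tags was thus in part a condition for being listed. The control tags of a site were recovered from its tags, its fold and both library totals, and came out whole within 2% at 527 of the 543 sites. The other 16 sites were at least 80 bp wide. Of the 527 sites, 423 (80.3%, interval 76.6 to 83.6%) had 0 or 1 control tag, 76 had 2, 24 had 3, 3 had 4 and 1 had 6. A site with no control tag is entered as 1 by the caller, so 0 and 1 cannot be told apart and the fold of such a site is a lower bound. Over all sites with a recovered count the share with 0 or 1 control tag was 81.6%, which is close to that of the strong sites. The mean was 1.26 control tags at the strong sites and 1.26 at the others, with 0 entered as 1. The share with 0 or 1 was between 79.6% and 83.8% in each of the 4 bands of tags from 9 to 50. Among the strong sites themselves it was 86.2% (193 of 224) at 51 to 60 tags, 75.7% (115 of 152) at 61 to 75, 79.6% (82 of 103) at 76 to 99 and 68.8% (33 of 48, interval 53.7 to 81.3%) at 100 or more.

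The fold of the strong sites ran from 10.3 to 203.8 with a median of 67.55, against a median of 12.59 at the other sites. It is computed from tags of the same library as the selection and so is not independent of it. The lowest fold belonged to a site on chromosome 1 of mm9 from 54883671 to 54883731, with 54 tags against 6 in the control. The next highest control counts were 4 tags each. These were chr18:61944951-61945011 with 77 tags, chr7:106280631-106280671 with 75 tags and chr4:134810411-134810591 with 61 tags. Of the 24 sites with 3 control tags, the one with the most tags was chr4:130138671-130138711, with 134 tags and a fold of 51.14. Each of these 5 sites was above the control by at least 10.3 times on the scale of the caller. Among the 930 sites with 3 or more control tags, 28 (3.01%) were strong sites, close to the 2.93% of the whole list.

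The 10 sites with the most tags held 140 to 178 tags and lay on 9 chromosomes. The highest count was on chromosome 15 from 97653491 to 97653531, with 178 tags (interval 153 to 206) and a fold of 203.8. It had no other site within 1 kb, and the 3 sites within 10 kb of it held 13, 10 and 12 tags. Of the tags at the listed sites of this locus, most were thus counted at a single site. Its 40 bp are the width given by the caller, and the spread of the reads around it was not examined. On chromosome 4 a site from 125809311 to 125809351 held 175 tags and a site from 125810071 to 125810271 held 155. They were 720 bp apart, and a site of 33 tags lay between them. The run of 8 sites around this pair held 20, 17, 11, 50, 175, 33, 155 and 10 tags in order of position. A site of 50 tags, just under the threshold, was thus part of the same run.

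Among the other sites of the 10, the one on chromosome 18 from 10324831 to 10324871 held 155 tags, and the one on chromosome 10 from 59387131 to 59387171 held 148. On chromosome 1, 145 tags were found from 74105171 to 74105231, next to the last site of the longest run of the list, in which 19 sites followed one another with gaps of at most 10 kb. The 18 other sites of this run held 9 to 65 tags. Sites of 143 tags were found at chr7:30246711-30246751 and at chr8:89676811-89676871. The former had a site of 24 tags at a gap of 180 bp, whereas the latter stood alone, its nearest site being 81540 bp away with 38 tags. There were 141 tags at chr17:66198271-66198311 and 140 at chr11:35729171-35729211. The site on chromosome 11 had 2 control tags and therefore a fold of 80.15, while each of the other 9 had 0 or 1 control tag. Of the 10 sites, 7 were 40 bp wide, 8 had another site within 1 kb and 8 were in runs of at least 5 sites.

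Sites over 50 tags were narrow. Width is the deposited end minus the deposited start, it changes in steps of 20 bp, which is the scanning window of the caller, and 40 bp is the narrowest in the list. The median width was 40 bp (quartiles 40 and 80) at the strong sites and 60 bp (quartiles 40 and 140) at the others. A width of 40 bp was found at 306 of the 543 sites (56.4%, interval 52.1 to 60.6%), against 28.1% of the other sites and 28.9% of all sites. The share of sites of 40 bp was 28.2% at 9 to 12 tags, 25.4% at 13 to 19, 29.7% at 20 to 29 and 35.5% at 30 to 50. It was thus lowest at 13 to 19 tags and higher in each band above. Within the strong sites it was 47.4% (110 of 232) at 51 to 60 tags, 54.8% (85 of 155) at 61 to 75, 71.0% (76 of 107) at 76 to 99 and 71.4% (35 of 49) at 100 or more. Sites of 200 bp or more followed another course. They were 6.07% of the sites at 9 to 12 tags, 20.5% at 13 to 19, 26.4% at 20 to 29 and 27.8% at 30 to 50. Above 50 tags they were 14.7% (80 of 543), close to the 14.6% of the other sites and the 14.6% of all sites. Width was estimated from the same tags as the selection, and the part of tag number in the estimate was not tested.

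**Figure D2:**
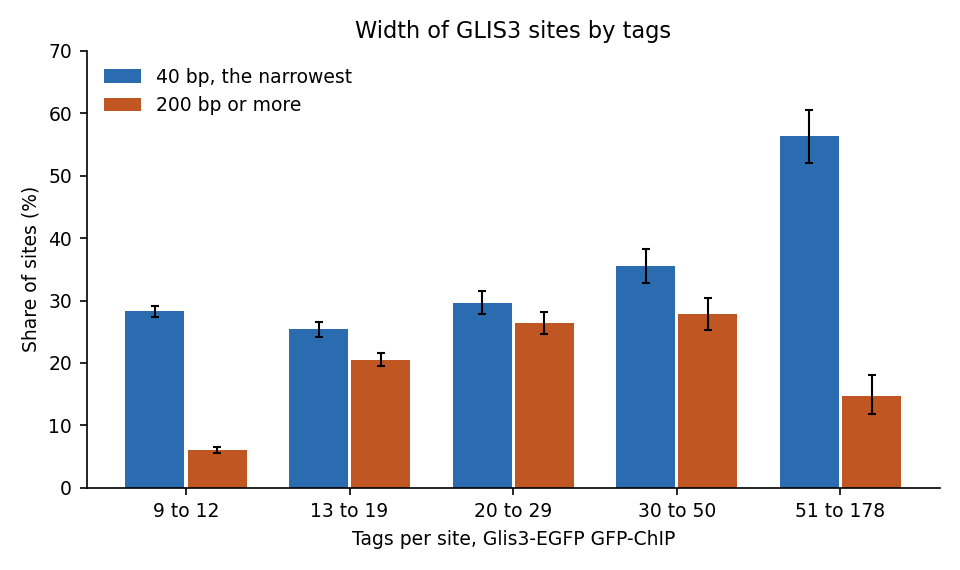
Share of GLIS3 sites (y axis, %) that were 40 bp wide (blue) or at least 200 bp wide (orange) in 5 bands of tags per site (x axis). Bars are shares and lines 95% exact binomial intervals, which treat sites as independent. Sites of 40 bp reach 56.4% in the band over 50 tags, where sites of at least 200 bp are 14.7%, close to the 14.6% of all sites.

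The strong sites that were wide held fewer tags. The 152 sites wider than 60 bp had a median of 59 tags, against 67 at the 306 sites of 40 bp. The widest, on chromosome 2 from 173073571 to 173074231, spanned 660 bp with 65 tags. Both sites of 620 bp held few more tags than the threshold, 55 at chr12:8502791-8503411 and 52 at chr5:5248691-5249311. A site of 560 bp on chromosome 16 from 20022471 to 20023031 held 65 tags, and of 3 sites of 500 bp the one with the most tags, chr17:46098691-46099191, held 76. All 5 had 0 or 1 control tag. Among the 49 sites of at least 100 tags the largest width was 200 bp, found at the site of 155 tags on chromosome 4 and at chr16:11087231-11087431, which held 108 tags.

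Another GLIS3 site lay close to most of the strong sites. Measured between the nearest edges, another site was within 1 kb of 284 of the 543 strong sites (52.3%, interval 48.0 to 56.6%), against 26.4% of the other sites and 27.2% of all sites. Within 10 kb there was another site at 413 strong sites (76.1%, interval 72.2 to 79.6%), against 55.1% of the other sites and 55.7% of all sites. The mean number of sites within 10 kb was 2.04 at the strong sites and 1.14 at the others, and 71 strong sites (13.1%) had at least 5, against 4.02% of the other sites.

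Closeness went with the number of tags along the whole list and had no step at 50 tags. A site within 1 kb was found at 24.3% of sites with 9 to 12 tags, 25.6% with 13 to 19, 29.2% with 20 to 29 and 39.9% with 30 to 50. The 425 sites with 40 to 50 tags had a share of 45.2% (interval 40.4 to 50.05%), and the 232 sites with 51 to 60 tags one of 46.1% (interval 39.6 to 52.8%), so that sites on either side of the threshold were within each other's interval. At 100 tags or more it was 61.2% (30 of 49, interval 46.2 to 74.8%). With sites 1 to 10 kb away counted alone the shares were 57.3% (311 of 543) at the strong sites and 43.3% at the others, so the difference was smaller there but in the same direction. At 40 to 50 tags that share was 56.0% (interval 51.1 to 60.8%), and at 51 to 60 tags 52.2% (interval 45.5 to 58.7%). The strong sites thus hardly differed here from sites just below the threshold. Within 10 kb the shares of these bands were 72.7% and 69.4%.

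**Figure D3:**
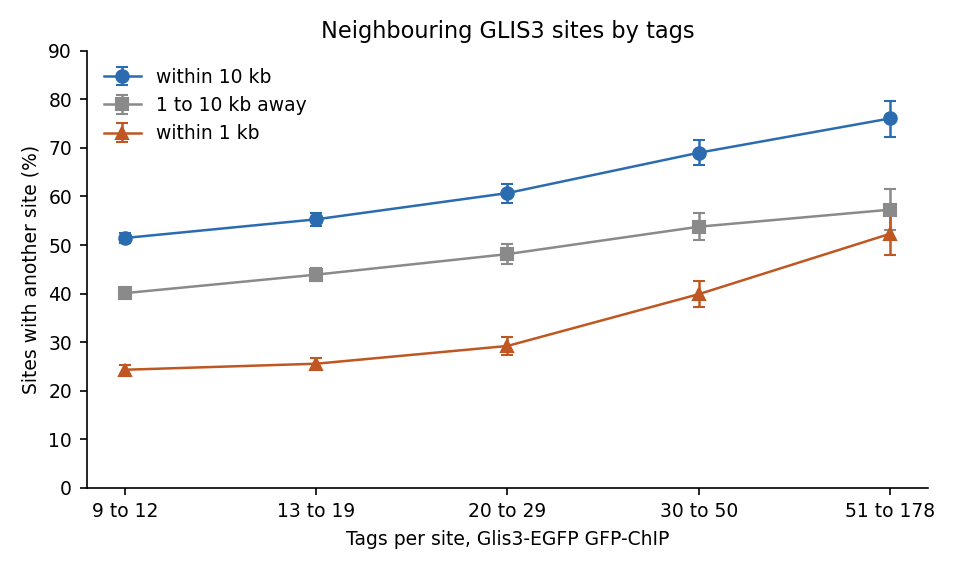
Share of GLIS3 sites (y axis, %) with another site within 10 kb (blue), 1 to 10 kb away (grey) or within 1 kb (orange), in 5 bands of tags per site (x axis). Points are shares and lines 95% exact binomial intervals, which treat sites as independent. All 3 shares are higher in each successive band, and the share within 1 kb reaches 52.3% over 50 tags.

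The neighbours within 1 kb were weak and lay at a narrow range of distances. The 543 strong sites had 407 neighbours in this range, with a median gap of 280 bp and quartiles of 220 and 480 bp. Gaps of 150 to 400 bp held 285 of them, or 70.02%, against 56.2% of the 5933 neighbours of other sites. Per 100 sites, the strong sites had 26.3 neighbours at a gap of 200 to 300 bp and the others had 7.32. At 100 to 200 bp the values were 15.1 and 8.20. At 400 to 1000 bp they were 22.5 and 13.7, and at 1 to 2 kb 22.8 and 13.2. The excess was thus most marked at 200 to 300 bp and did not end there. The fragment length that the caller estimated for this library was 204 bp, and its part in the calling of a weak site at about this distance from a strong site was not tested. The sources used here do not say whether the caller can count a tag at more than 1 site.

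**Figure D4:**
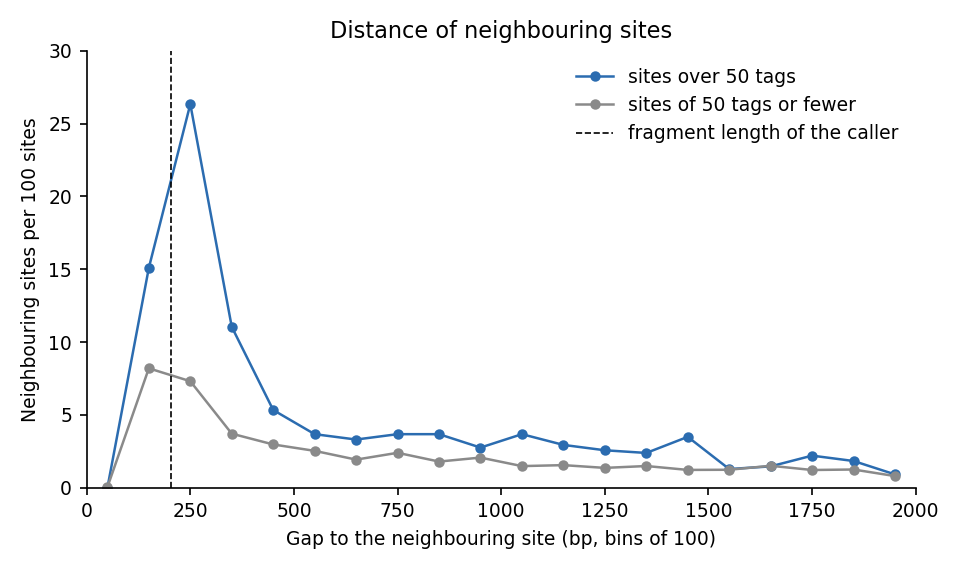
Number of neighbouring sites per 100 sites (y axis) in bins of 100 bp of the gap between nearest edges (x axis, bp), for sites over 50 tags (blue) and the other sites (grey). The dashed line is the fragment length of 204 bp given by the caller. The values peak at 26.3 for strong sites between 200 and 300 bp, where the other sites have 7.32.

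The neighbours of strong sites within 1 kb had a median of 14 tags with quartiles of 10.5 and 20, and the neighbours of other sites also had a median of 14, with quartiles of 10 and 23. Of the neighbours, 6 of 407 at the strong sites and 401 of 5933 at the other sites held more than 50 tags. The 401 are the pairs of a strong and a weaker site seen from the weaker one. Both counts thus come from the same pairs and are not separate observations. The tags of the strong site were at least 3 times those of the neighbour for 336 of the 407 neighbours (82.6%), and the median ratio was 4.84. This ratio is fixed in part by the selection. On both sides within 1 kb, neighbours were found at 59 of the 284 strong sites that had any, and at 471 of the 4752 other sites that had any. The 396 weaker sites within 1 kb of a strong site were set beside the 4356 weaker sites that had only weaker sites within 1 kb. A width of 40 bp was found at 35.4% of the former and 29.2% of the latter. Both had a median of 13 tags, a median width of 60 bp and a median fold of 13.74, and 0 or 1 control tag was found at 78.7% of the former and 80.4% of the latter.

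Another strong site lay within 1 kb of 6 of the 543 strong sites (1.10%, interval 0.407 to 2.39%), in 3 pairs with gaps of 280 to 720 bp. Of the other sites, 396 (2.20%, interval 1.99 to 2.43%) had a strong site within 1 kb. Within 10 kb there was another strong site at 45 of the 543 (8.29%, interval 6.11 to 10.9%), and a strong site at 962 of the other sites (5.35%, interval 5.03 to 5.69%). The share at the strong sites was thus the higher at 10 kb but not at 1 kb. Strong sites also had more sites of any strength nearby, which these shares leave out of account. Among sites with any other site within 10 kb, 45 of 413 strong sites and 962 of 9896 others had a strong site there, which are close shares. Within 1 kb these were 6 of 284 and 396 of 4752. The share of strong sites with another strong site within 10 kb depended on the threshold. It was 12.5% among the 904 sites over 40 tags and 5.13% among the 156 sites over 75 tags. A higher threshold leaves fewer sites that can be near one another. No share of the other sites is given at these thresholds, so a change in closeness cannot be read from them. Besides the pair on chromosome 4, 1 pair was on chromosome 7 from 29381571 to 29381931 with 88 and 102 tags and a gap of 280 bp, and 1 on chromosome 10 from 13684831 to 13685471 with 64 and 85 tags and a gap of 560 bp. Linking strong sites alone at gaps of at most 10 kb gave 18 groups of 2 and 3 groups of 3, and 498 strong sites remained single. The groups of 3 were chr9:97892851-97899011 with 52, 118 and 90 tags, chr7:29377751-29381931 with 60, 88 and 102 tags, and chr12:113044791-113054911 with 97, 51 and 92 tags. A pair with similar counts, 124 and 131 tags, lay on chromosome 15 from 89144871 to 89153271 with no other site between them.

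In runs of sites linked by gaps of at most 10 kb, a strong site usually had the most tags. Of the 413 strong sites in runs of at least 2 sites, 386 (93.5%) ranked first in their run, which the selection favours. Runs of at least 5 sites held 147 of the 543 strong sites (27.1%, interval 23.4 to 31.0%), against 11.9% of the other sites and 12.3% of all sites. The share had no step at 50 tags, being 18.8% at 40 to 50 tags and 20.3% (47 of 232) at 51 to 60. At 51 to 55 tags alone it was 12.7% (16 of 126). It was 25.8% at 61 to 75 tags, 30.8% at 76 to 99 and 55.1% (27 of 49) at 100 or more. When only the strongest of sites within 1 kb of one another was kept, the shares of strong and other sites were 7.61% and 4.15%, so that the difference was 3.45 percentage points. With sites of at most 60 bp alone they were 6.91% and 2.89%. Seen from the runs, 8.33% of the 204 sites in runs of at least 10 were strong (interval 4.93 to 13.01%), 6.25% of the 2080 in runs of 5 to 9 (interval 5.25 to 7.38%), 3.69% of the 3717 in runs of 3 to 4, 2.99% of the 4308 in pairs and 1.58% of the 8204 isolated sites (interval 1.33 to 1.88%). The isolated strong sites, 130 in number, had a median of 60 tags. Of the 16 runs with at least 10 sites, 10 held a strong site. So did 31.9% of the 348 runs of 5 to 9, 11.9% of the 1129 runs of 3 to 4 and 5.99% of the 2154 pairs. A longer run has more sites, any of which may be strong, and these shares are not adjusted for that. The run with the most strong sites was on chromosome 7 from 29355031 to 29381931, where 4 of 12 sites held 53, 60, 88 and 102 tags. By contrast, the run of 18 sites on chromosome 16 from 30024891 to 30069931 held none, its highest count being 37 tags, and the run of 15 sites on chromosome 11 from 3028471 to 3063611 reached 24 tags. Many sites in a run therefore did not always go with a strong site.

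Strong sites were found on all 19 autosomes and on the X chromosome. Among the autosomes the numbers ran from 13 on chromosome 16 to 52 on chromosome 2. As a share of the sites on a chromosome they ran from 1.62% on chromosome 6 (14 of 864, interval 0.889 to 2.70%) to 4.38% on chromosome 12 (39 of 890, interval 3.13 to 5.94%). These were the only chromosomes, of 22 with sites, whose interval did not hold the 2.93% of the whole list, and the intervals were not adjusted for the number of chromosomes. As a ratio to the share of the whole list, chromosome 12 was at 1.49 (interval 1.07 to 2.03), and its interval held 1 among sites over 60 tags (0.873 to 2.13) and over 75 tags (0.641 to 2.44). Chromosome 6 was at 0.552 (interval 0.303 to 0.922), and its interval held 1 among sites over 40 tags (0.502 to 1.04) and over 75 tags (0.0850 to 1.2002). Chromosomes 12 and 18 together had 62 strong sites among 1510 (4.11%), chromosome 7 had 33 among 1074 (3.07%), and chromosomes 11 and 19 had 54 among 2163 (2.50%). The median tags of all sites were 12 to 14 on every autosome, so the chromosomes differed little in the typical site.

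The X chromosome had few sites of any strength, but its share of strong sites, 5 of 178 (2.81%, interval 0.918 to 6.43%), was near that of the whole list. The 5 sites held 60 tags from 11630631 to 11630871, 51 from 48321051 to 48321091, 58 from 96247891 to 96247931, 65 from 100954811 to 100954871 and 53 from 159975371 to 159975411. All had 0 or 1 control tag. The highest count of an autosome ran from 89 tags on chromosomes 6 and 14 to 178 on chromosome 15, above the 65 of the X chromosome. A highest count also depends on the number of sites, which was small on the X chromosome. Neither the Y nor the mitochondrial chromosome had a strong site, with 1 site each in the list.

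**Figure D5:**
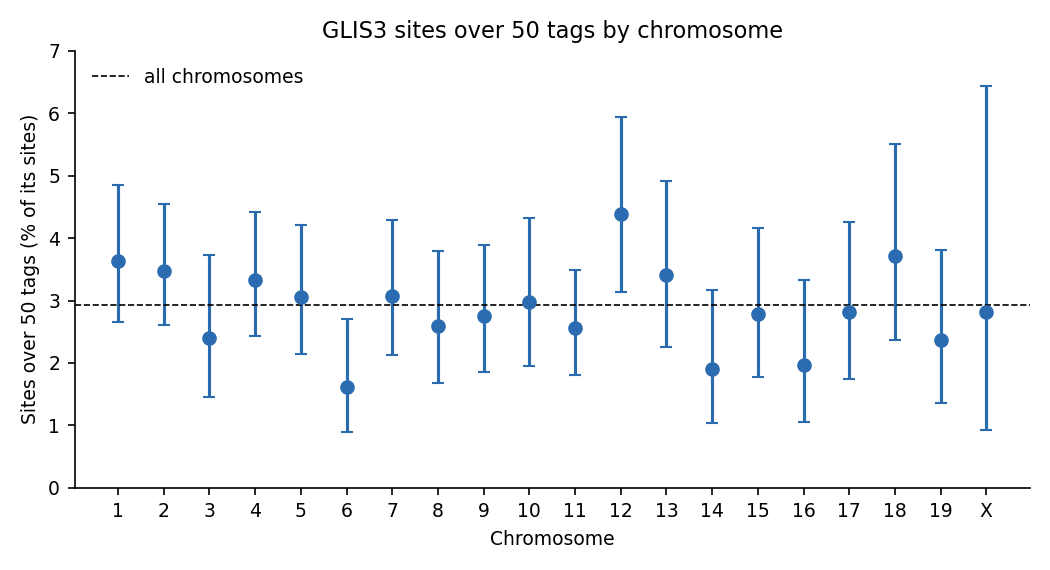
Sites over 50 tags as a share of the sites on each chromosome (y axis, %), for 19 autosomes and the X chromosome (x axis). Points are shares, lines 95% exact binomial intervals that treat sites as independent, and the dashed line is the share of 2.93% in the whole list. Chromosome 12 lies highest with 4.38% and chromosome 6 lowest with 1.62%.

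Genes near the strong sites and the DNA sequence under them were not analysed here. The positions are those of mm9, and the genome and annotation used here were of another build.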

How the data were processed

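ChIP-Seq of GLIS3 in thyroid glands of Glis3-EGFP mice and of WT mice was used, with 1 library each. According to the submitters' processing notes, reads were mapped to mm9 with Bowtie, whose version the sources used here do not give. Per the file headers, sites were called with SISSRs 1.4 (P-value 0.05, E-value 10, window 20 bp, fragment length 204 bp) from 4516562 selected tags against 5171171 tags of the WT GFP ChIP. This list differs from the mm10 HOMER calls of the study's methods. The deposited count gives the tags of each site. At 17804 of 18513 sites the deposited fold is, within 2%, the ratio of these tags to a whole number of control tags scaled by both totals. At the remaining sites it is not, and the counts behind the fold there are not known. The deposited p-value per site is that of the caller, used here only as a filter. The lowest count in the list was 9 tags and the lowest fold 2.

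Control tags were recovered as tags divided by fold, scaled by 5171171 over 4516562, and kept if whole within 2%, which held at 17804 of 18513 sites. Gaps were taken between nearest edges. Poisson and binomial intervals were exact, and the interval of a median came from its order statistics. Named were the 10 sites with the most tags, the 5 widest, the 5 with the most control tags, the 5 largest groups and pairs of strong sites, and those on the X, Y and mitochondrial chromosomes. Runs with many or no strong sites were picked after their values were seen. The selection and the measures were chosen with earlier results of these data known. Alternatives changed the threshold, ranking, filters, merging and distances. Steps were checked on a made list with known answers. Input and RNA-seq libraries were not analysed here. The scripts ran under Python 3.11.15 with pandas 2.3.3, SciPy 1.17.1 and NumPy 2.4.6, and plots were drawn with Matplotlib 3.10.9.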

Additional observations from a re-analysis of the deposited data

How the results depend on the processing

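In 58 of 97 alternatives the value lay within the interval, or the count within 1.5 times, of the value reported, and the cause of the shifts below was not tested. By construction, thresholds of 40, 60 and 75 tags left 904, 311 and 156 sites. At over 60 and over 75 tags, 56.9% and 58.97% had a site within 1 kb, 81.0% and 84.0% within 10 kb, 75.9% and 76.2% had 0 or 1 control tag, 32.2% and 38.5% were in runs of 5 or more, and 5.79% and 5.13% had another strong site within 10 kb, a share that was 12.5% at over 40. The interval of chromosome 12 no longer lay above the whole list at over 60 and over 75 tags, nor that of chromosome 6 below it at over 40 and over 75. The X chromosome had 0 sites over 75 tags. With as many sites ranked by fold, which uses the control, 96.4% had 0 or 1 control tag, and ranked by tags per bp of width 75.5%. At a p-value of the caller of at most 0.001, 46.4% had a site within 1 kb and 22.5% were in runs of 5 or more. With sites of at most 60 bp alone these were 35.8% and 6.91%, with 62.4% within 10 kb and 5.63% near another strong site. Merging sites within 1 kb and summing tags gave 886 sites over 50 tags with a median width of 490 bp, of which 56.8% had another within 10 kb, against 40.1% of the others, and 8.58% against 4.16% were in runs of 5 or more. Keeping the strongest site within 1 kb gave 55.5% against 40.3%, and 7.61% against 4.15% in such runs. Within 1 kb these 2 settings give no value, nor does summing for control tags. Distances of 5 and 50 kb gave 68.9% and 92.8%, and runs linked at 5 and 20 kb held 15.8% and 39.96%. With sites 1 to 10 kb away alone, added after the data were examined, the shares were 57.3% and, for the others, 43.3%. Against sites of 40 to 50 tags alone, the shares of the others were 45.2% within 1 kb and 72.7% within 10 kb.

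Strong sites had the higher share within 1 kb in 10 of 10 alternatives (by 19.05 to 32.0 percentage points), within 10 kb in 12 of 12 (15.2 to 28.5) and in runs of 5 or more in 12 of 12 (3.45 to 26.3). These counts leave out the comparison with sites of 40 to 50 tags alone. There the shares were 52.3% against 45.2% within 1 kb and 76.1% against 72.7% within 10 kb. Also left out are sites 1 to 10 kb away alone (57.3% against 43.3%, and against 56.0% at sites of 40 to 50 tags). The settings are overlapping cuts of the same list and are not independent. The strong sites had the higher share of 40 bp sites in 11 of 12. Of these 11, ranking by tags per bp of width favours narrow sites by construction (88.95% against 27.1%). Taking gaps between middles leaves widths as they were. After merging with summed tags, which widens sites by construction, the share was lower by 8.71 points (15.8% against 24.5%). No paired analysis was possible because each ChIP group has 1 library. One library per group allows counting error only.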
